A study of Mus musculus with 15 samples.

Results

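The genes described here are 10 regulators of chromatin and DNA methylation that are recurrently mutated or deregulated in lymphoma: *Ezh2, Kmt2d, Crebbp, Ep300, Arid1a, Tet2, Tet3, Dnmt1, Dnmt3a* and *Uhrf1*. They were taken by name, without a threshold on any measured value, and all 10 were found among the 41388 genes counted and passed the filter on low counts. RNA had been sequenced from A20 parental cells, a BALB/c mouse B-cell lymphoma line with a wild-type *Foxp1* label, and from 4 CRISPR/Cas9 derivatives of it. Clones E6.1 and E6.2 carry mutations in *Foxp1* exon 6 and clones E7.1 and E7.2 carry mutations in exon 7, and Foxp1 is a forkhead transcription factor. Each clone is 1 line grown from a single cell and is represented by 3 libraries from separate passages, as is the parental line, so a difference between a clone and the parental line cannot be told apart from a difference between any 2 lines derived from single cells.

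The list covers enzymes that write, read or remove marks on histones and DNA. Ezh2 is the catalytic subunit of Polycomb repressive complex 2 (PRC2), which methylates histone H3 at lysine 27, and it is highly expressed in dividing germinal centre B cells. Kmt2d methylates histone H3 at lysine 4 at enhancers, Crebbp and Ep300 are paralogous acetyltransferases of histone H3 lysine 27, and Arid1a is a DNA-binding subunit of the BAF chromatin remodelling complex. Dnmt1 copies DNA methylation onto the new strand after replication, Uhrf1 recruits it to hemimethylated DNA, Dnmt3a methylates DNA de novo, and Tet2 and Tet3 oxidise 5-methylcytosine, the first step of its removal.

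Total counts ranged from 26328054 to 39181530 per library, and a member had between 541 counts (*Tet2* in E7.1 replicate 1) and 15427 counts (*Ezh2* in the same library). Levels are given as CPM, counts scaled to library size after trimmed-mean (TMM) normalization. *Foxp1* itself averaged 138 ± 32.7 CPM (SD, n = 3) in parental cells. The means were 104 ± 4.60 for E6.1 and 106 ± 2.38 for E6.2, and 56.8 ± 13.0 for E7.1 and 43.0 ± 8.19 for E7.2. It passed the test in E7.1 (log2 fold change of -1.29, adjusted p = 0.00688, edgeR quasi-likelihood test with Benjamini-Hochberg adjustment) and E7.2 (-1.69, adjusted p = 0.00116, same test), but not in E6.1 (-0.41) or E6.2 (-0.39). A frameshift need not change the transcript level, so *Foxp1* RNA checks the E6 labels only in part. All 9 B-cell markers measured were present, with *Cd79b* between 181 and 328 CPM. The T-cell gene *Cd3e* had a count of 0 in all 15 libraries, and the summed levels of the T-cell, myeloid, fibroblast and epithelial lists reached at most 0.607, 8.74, 0.674 and 3.49 CPM.

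A set of 3 libraries stood apart. E6.2 replicate 1 was the highest of the 15 libraries for 7 of the 10 members. E7.2 replicate 3 was the lowest for *Ezh2, Dnmt1* and *Uhrf1* and for 15 of 16 proliferation genes, and E6.2 replicate 3 was the lowest for 3 members. How many of all genes, or of genes of similar length, had these libraries at an extreme was not counted. These counts therefore cannot be called particular to the members. Results that rest on these libraries are given with and without them. The 3 libraries were picked in part by the members' own values, so p-values from fits without them depend on that choice.

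Positions are those of GRCm38. *Ezh2* lies on chromosome 6 from 47530274 to 47595341, *Tet3* on chromosome 6 from 83362373 to 83459084, *Kmt2d* on chromosome 15 from 98831669 to 98871204, *Crebbp* on chromosome 16 from 4081328 to 4213407, *Arid1a* on chromosome 4 from 133679008 to 133756769, *Tet2* on chromosome 3 from 133463679 to 133544390 and *Dnmt1* on chromosome 9 from 20907206 to 20959888, all on the minus strand. On the plus strand, *Ep300* lies on chromosome 15 from 81585351 to 81652072, *Dnmt3a* on chromosome 12 from 3806007 to 3914443 and *Uhrf1* on chromosome 17 from 56303321 to 56323486. All are protein coding. Counts covered all annotated exons, coding and untranslated. *Ezh2* shares 174 exonic bases with *Gm26625* on the opposite strand, and *Dnmt3a* shares 133 with the antisense gene *Dnmt3aos*. Because counting ignored strand, reads there cannot be assigned to one gene. *Ep300* shares 54 exonic bases with *Gm23880* on its own strand, where reads cannot be assigned either.

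The parental line expressed the members over a wide range. Per kilobase of exon (RPKM, which allows genes of different length to be compared), *Ezh2* was highest at 51.0 ± 4.99 (SD, n = 3), followed by *Dnmt1* at 31.7 ± 6.88, *Uhrf1* at 24.1 ± 8.75 and *Arid1a* at 20.2 ± 2.32. *Crebbp* (9.90 ± 0.429) and its paralog *Ep300* (9.37 ± 1.55) came next. *Tet3* reached 6.18 ± 0.748, *Dnmt3a* 4.49 ± 0.725, *Kmt2d* 2.92 ± 0.595 and *Tet2* 2.75 ± 0.138 RPKM. The ranges of the 3 parental libraries overlapped between *Dnmt1* and *Uhrf1*, *Uhrf1* and *Arid1a*, *Crebbp* and *Ep300*, and *Kmt2d* and *Tet2*, so the order within those pairs is not set. PRC2 catalysis and the maintenance of DNA methylation were thus represented by the most abundant transcripts of the list, and the enzymes that oxidise 5-methylcytosine by some of the least.

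**Figure D1:**
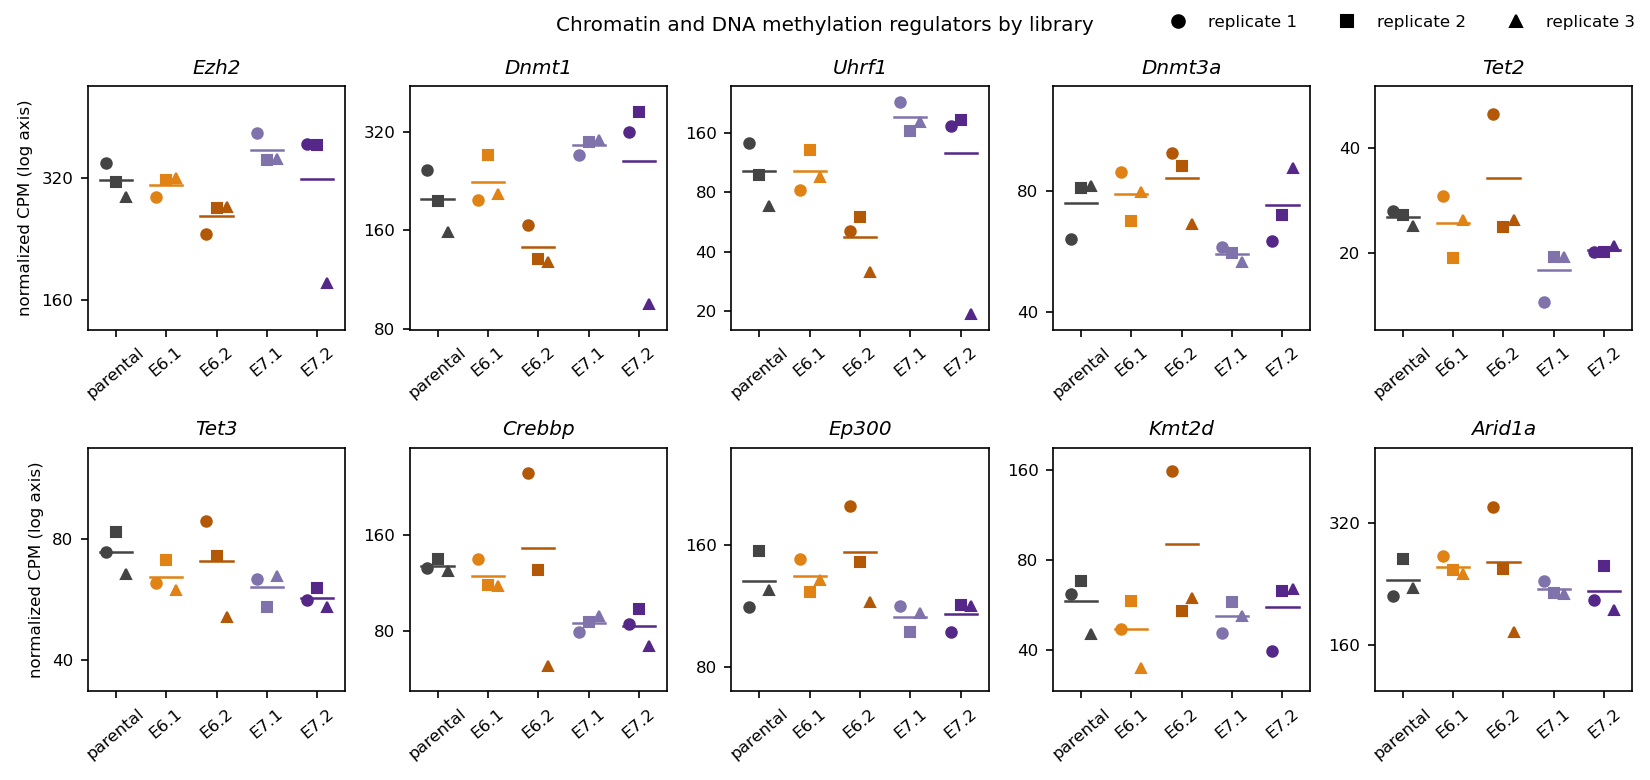
TMM-normalized CPM of each member (log axis) in the 15 libraries, by line; circles, squares and triangles are replicates 1, 2 and 3, and horizontal bars are the means of 3 libraries. *Ezh2, Dnmt1* and *Uhrf1* are high in the E7 libraries except E7.2 replicate 3, and E6.2 replicate 1 is the highest point for the other 7 members.

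The first question was whether any clone differed from the parental line. None of the 10 members passed the test in any clone, that is, 0 of 40 pairs of member and clone at an adjusted p under 0.05 (edgeR quasi-likelihood test with Benjamini-Hochberg adjustment over 13904 genes). The same test called 0.324% and 1.17% of all genes in the exon 6 clones E6.1 and E6.2, and 1.22% and 0.295% in the exon 7 clones E7.1 and E7.2, so that among 10 genes less than 1 call would match the background. In 2 pairs the unadjusted p was under 0.05 (*Dnmt3a* in E7.1 and *Tet3* in E7.2), the lowest adjusted p was 0.227, and DESeq2 also called 0 pairs. These comparisons bound the differences only loosely, since the 95% intervals of the log2 fold change had half-widths between 0.365 and 1.19, and 28 of 40 lay within 1 log2 unit of 0.

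**Figure D2:**
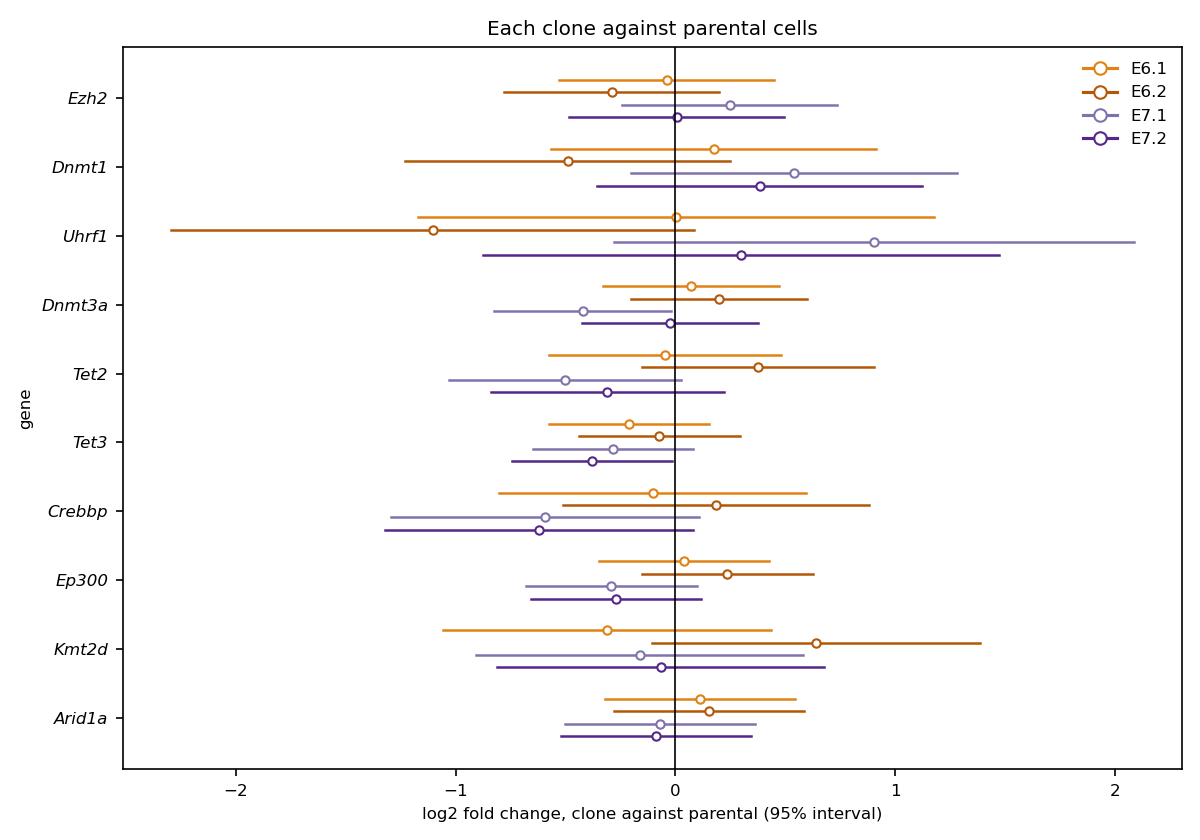
Log2 fold change of each member in each clone against parental cells (points) with its 95% interval (lines) from the edgeR fit to 15 libraries. No point passed the test, and the intervals of *Uhrf1* are the widest.

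Of the genes of DNA methylation maintenance, *Uhrf1* had the largest difference and the widest intervals of the 10 members. It measured 142, 98.0 and 67.9 CPM across the parental libraries, 82.3, 131 and 95.3 across E6.1, 51.1, 60.3 and 31.7 across E6.2, 230, 164 and 182 across E7.1 and 173, 187 and 19.4 across E7.2. All 3 E6.2 libraries lay under the parental range, as for 8.61% of all genes, and all 3 E7.1 libraries lay over it, as for 16.4% of all genes, whereas E7.2 had libraries on both sides. The log2 fold change against parental cells was -1.11 in E6.2 (SE 0.56, adjusted p = 0.412, edgeR quasi-likelihood test) and 0.90 in E7.1 (SE 0.55, adjusted p = 0.380, same test).

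*Dnmt1*, the maintenance methyltransferase that Uhrf1 recruits, measured 245, 197 and 158 CPM across the parental libraries, 199, 271 and 206 across E6.1, 167, 131 and 129 across E6.2, 272, 297 and 303 across E7.1 and 319, 367 and 95.7 across E7.2. As for *Uhrf1*, the E7.1 libraries and the first pair from E7.2 lay over the parental range and E7.2 replicate 3 lay under it. The log2 fold change was 0.54 in E7.1, 0.38 in E7.2 and -0.49 in E6.2.

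*Ezh2* measured 349, 313 and 287 CPM across the parental libraries, 287, 317 and 320.2 across E6.1, 233, 271 and 272 across E6.2, 413, 356 and 357 across E7.1 and 389, 387 and 177 across E7.2. Its differences were smaller, from -0.29 in E6.2 to 0.25 in E7.1 on the log2 scale. The E7.2 value of 0.01 averages a pair of libraries over the parental range and 1 library under it.

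Without E7.2 replicate 3, the log2 fold changes in E7.2 were 0.33 for *Ezh2*, 0.82 for *Dnmt1* and 0.85 for *Uhrf1*, and no member was called in any clone. When E6.2 replicate 3 was left out as well, *Dnmt1* (0.57, adjusted p = 0.0402) and *Uhrf1* (0.93, adjusted p = 0.0237) were called higher in E7.1, where 15.2% of all genes were then called, and *Dnmt1* (0.82, adjusted p = 0.0488) was called higher in E7.2, where 1.53% were (edgeR quasi-likelihood test). The calls in E7.1 therefore came with 2 libraries of other clones removed from the shared estimate of the spread. The call in E7.2 came after removal of the library that was lowest for *Dnmt1*, so its p-value depends on that choice.

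The acetyltransferases were lower in both E7 clones than in parental cells, but not past the threshold. *Crebbp* measured 126, 134 and 124 CPM across the parental libraries, 135, 112 and 111 across E6.1, 249, 125 and 62.3 across E6.2, 79.5, 85.3 and 89.4 across E7.1 and 83.9, 93.8 and 71.8 across E7.2. The 6 E7 libraries all lay under the parental range, and E6.2 held both the highest and the lowest library of the 15. Over all genes the E7.1 libraries lay under the parental range for 15.6%, the E7.2 libraries for 13.3%, and all 6 for 862 of 13904 genes. The log2 fold change was -0.59 in E7.1 (SE 0.33, adjusted p = 0.326) and -0.62 in E7.2 (SE 0.33, adjusted p = 0.421, edgeR quasi-likelihood test for both). In a fit of the parental and E7.1 libraries alone, *Crebbp* was called in E7.1 (-0.58, adjusted p = 0.0457, same test), as were 1.29% of the genes tested.

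*Ep300* measured 113, 154 and 124 CPM across the parental libraries, 148, 122 and 131 across E6.1, 199, 146 and 115 across E6.2, 113, 97.3 and 109 across E7.1 and 97.2, 114 and 113 across E7.2. Of the 6 E7 libraries 3 lay under the parental range and 3 just inside its lower end. Its log2 fold change against parental cells was -0.29 for E7.1 and -0.27 for E7.2, a smaller difference than for *Crebbp*. With an offset for gene length, described below, *Ep300* moved to -0.13 (E7.1) and -0.04 (E7.2). *Crebbp* moved to -0.45 (E7.1) and -0.41 (E7.2).

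Among the enzymes that oxidise 5-methylcytosine, *Tet2* measured 26.3, 25.7 and 23.9 CPM across the parental libraries, 29.1, 19.4 and 24.8 across E6.1, 49.96, 23.7 and 24.8 across E6.2, 14.5, 19.5 and 19.5 across E7.1 and 20.1, 20.1 and 20.9 across E7.2. All 6 E7 libraries lay under the parental range, as they did for 862 of 13904 genes, and the log2 fold change was -0.50 for E7.1 and -0.31 for E7.2. *Tet3* measured 74.0, 83.2 and 65.3 CPM across the parental libraries, 62.0, 70.8 and 59.6 across E6.1, 88.2, 72.3 and 51.1 across E6.2, 63.6, 54.3 and 64.7 across E7.1 and 56.4, 60.3 and 54.3 across E7.2. Here too the 6 E7 libraries lay under the parental range (the same 862 genes include *Crebbp, Tet2* and *Tet3*), and the log2 fold change was -0.29 in E7.1 and -0.38 in E7.2.

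*Dnmt3a*, the de novo methyltransferase, measured 60.8, 81.1 and 82.3 CPM across the parental libraries, 88.7, 67.2 and 79.4 across E6.1, 98.8, 92.2 and 66.0 across E6.2, 58.1, 56.0 and 53.2 across E7.1 and 59.9, 69.4 and 91.1 across E7.2. The 3 E7.1 libraries lay under the parental range, as for 15.6% of all genes (log2 fold change of -0.42, adjusted p = 0.227, edgeR quasi-likelihood test), while E7.2 spread across it (-0.02). E7.2 replicate 3, the lowest library for *Dnmt1*, was exceeded for *Dnmt3a* only by replicates 1 and 2 of E6.2.

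*Kmt2d* measured 61.3, 67.8 and 44.9 CPM across the parental libraries, 47.0, 58.4 and 34.8 across E6.1, 158, 53.7 and 59.4 across E6.2, 45.6, 57.8 and 52.0 across E7.1 and 39.6, 62.8 and 63.7 across E7.2. Only E6.2 replicate 1 lay over the parental range, and the log2 fold change of 0.64 in E6.2 became -0.05 without it. *Arid1a* measured 211, 262 and 222 CPM across the parental libraries, 265, 246 and 239 across E6.1, 351, 247 and 173 across E6.2, 230.4, 216 and 215 across E7.1 and 206, 251 and 196 across E7.2. Its log2 fold changes lay between -0.09 and 0.15, and the value in E6.2 went from 0.15 to -0.15 without replicate 1.

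The second question was whether the clones with exon 7 mutations differed from those with exon 6 mutations. This contrast sets the mean of 2 lines against the mean of 2 others, and its p-values measure the spread between passages of these 4 clones, not between independently edited lines. The test called 2 of 10 members, while it called 12.1% of all genes, 5.85% lower and 6.21% higher in the E7 clones. With 10 members, 2 calls are of the same order as that background. DESeq2 called 4 members, with *Crebbp* and *Uhrf1* besides, and 19.3% of genes, and edgeR without the filter on low counts called 3 (*Tet2, Crebbp* and *Uhrf1*) and 6.17% of genes. With DESeq2 size factors in edgeR, with only the 12 clone libraries in the fit and with a replicate block, 0 members were called, and the adjusted p of *Ep300* was 0.0541, 0.0626 and 0.0657. *Ep300* was lower in the E7 clones, with a median of 111 CPM over 6 libraries (lowest 97.2, highest 114) against 138 in the E6 clones (lowest 115, highest 199). Its log2 fold change was -0.42 (SE 0.13, adjusted p = 0.0482, edgeR quasi-likelihood test with Benjamini-Hochberg adjustment). It was the only member whose E7 and E6 libraries did not overlap, a pattern with every E7 library under every E6 library that 1.75% of all genes had, while 1.81% had the opposite one and 3.55% either. *Tet2* was also lower, with a median of 19.8 CPM (lowest 14.5, highest 20.9) against 24.8 (lowest 19.4, highest 49.96), and here the groups overlapped in part. Its log2 fold change was -0.57 (SE 0.17, adjusted p = 0.0484, same test).

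Both calls lay close to the threshold. Of the 15 fits that left out 1 library, *Ep300* stayed called in 1 and *Tet2* in 3, and in 11 no member was called. Without E6.2 replicate 1 the log2 fold change of *Ep300* was -0.27 (adjusted p = 0.119) and that of *Tet2* -0.32 (adjusted p = 0.108), with 0 members and 7.62% of genes called by the edgeR quasi-likelihood test. The direction was the same in all 15 of these fits for both genes.

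The other 8 members did not pass, although 6 of the 10 had an unadjusted p under 0.05, against 30.3% of all genes. *Uhrf1* had the largest value (log2 fold change of 1.15, SE 0.39, adjusted p = 0.0682), followed by *Crebbp* (-0.65, SE 0.23, adjusted p = 0.0786), *Dnmt1* (0.62, SE 0.24, adjusted p = 0.106) and *Dnmt3a* (-0.36, SE 0.13, adjusted p = 0.0888, edgeR quasi-likelihood test for all 4). The remaining values were 0.29 for *Ezh2*, -0.28 for *Kmt2d*, -0.21 for *Arid1a* and -0.19 for *Tet3*. Without E6.2 replicate 1, *Crebbp* was at -0.30 (adjusted p = 0.220, same test), *Kmt2d* at 0.09, *Arid1a* at -0.04 and *Tet3* at -0.07. The median over the 10 members was -0.25, beside -0.03 over all genes tested.

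For *Ezh2, Dnmt1* and *Uhrf1* the pattern had 1 exception. In each of them 5 of 6 E7 libraries lay over all 6 E6 libraries, and E7.2 replicate 3 lay under all of them. The share of all genes with this pattern was not counted, so it cannot be called particular to these 3 members. The E7 medians were 372, 299.6 and 177 CPM, the E6 medians 279, 183 and 71.3 CPM, and the values in E7.2 replicate 3 were 177, 95.7 and 19.4 CPM. Without that library all 3 were called higher in the E7 clones, *Ezh2* by 0.46 (SE 0.09, adjusted p = 0.00673), *Dnmt1* by 0.84 (SE 0.13, adjusted p = 0.00196) and *Uhrf1* by 1.43 (SE 0.20, adjusted p = 0.00131) on the log2 scale (edgeR quasi-likelihood test). E7.2 replicate 3 had been set apart by its low values for these same 3 genes, so their p-values here are not an independent test. *Dnmt3a* was called lower in the same fit (-0.42, adjusted p = 0.0330), *Ep300* (adjusted p = 0.0506) and *Tet2* (adjusted p = 0.0597) were not, and 17.7% of all genes were called.

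Leaving out E6.2 replicate 3 instead gave 5 calls, all lower in the E7 clones, with 26.8% of all genes called. They were *Crebbp* (-0.82, adjusted p = 0.00385), *Ep300* (-0.49, adjusted p = 0.00855), *Tet2* (-0.64, adjusted p = 0.0187), *Dnmt3a* (-0.42, adjusted p = 0.0225) and *Tet3* (-0.27, adjusted p = 0.0494), by the edgeR quasi-likelihood test. The library left out was the lowest for *Crebbp, Arid1a* and *Tet3*, so the p-values of *Crebbp* and *Tet3* are not an independent test either. Leaving out E6.2 and E7.2 replicates 3 together gave 7 calls, with *Ezh2, Dnmt1* and *Uhrf1* higher and *Tet2, Dnmt3a, Ep300* and *Crebbp* lower, and 33.1% of all genes were then called. *Kmt2d* and *Arid1a* were called in none of these fits.

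**Figure D3:**
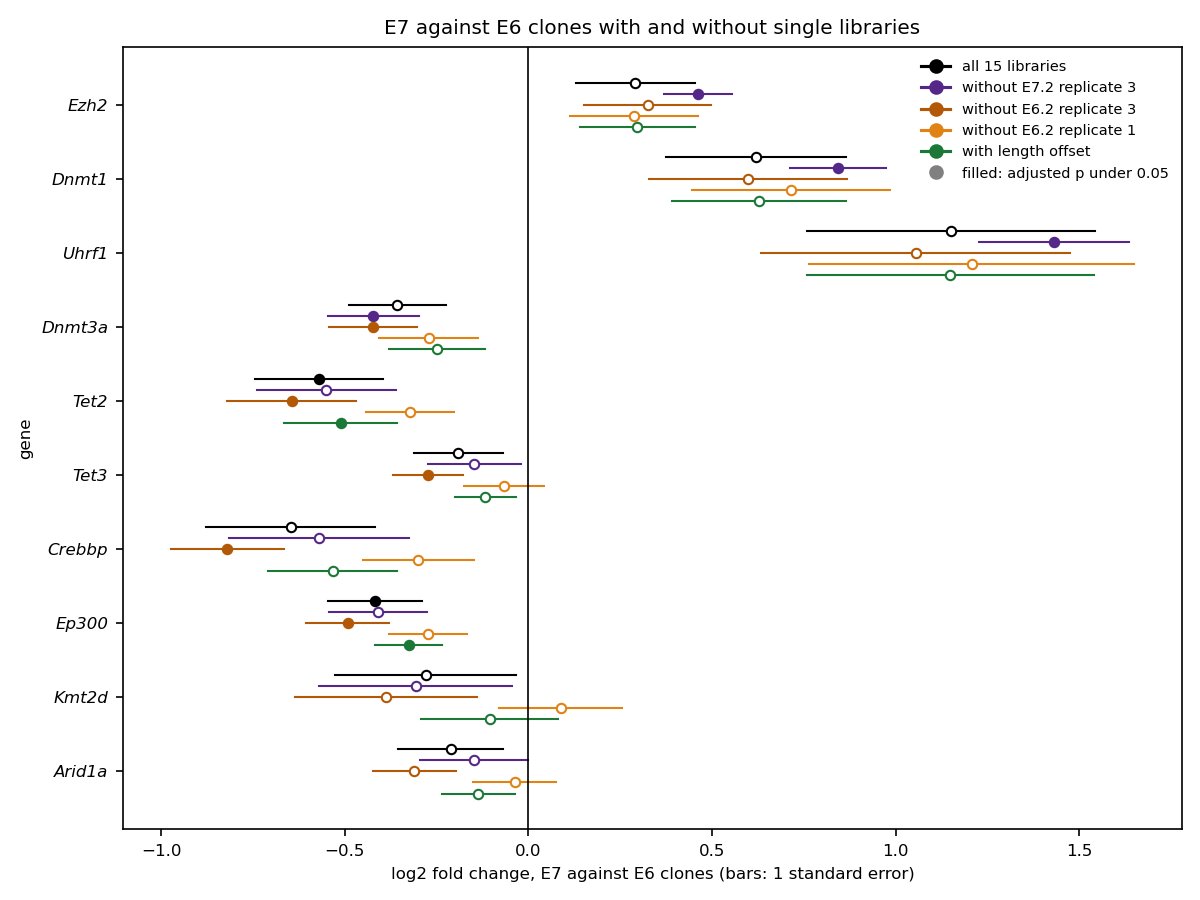
Log2 fold change of each member in the E7 clones against the E6 clones (points, with lines of 1 standard error) with all 15 libraries, without 1 library and with an offset for gene length; filled points have an adjusted p under 0.05. The values of *Ezh2, Dnmt1* and *Uhrf1* are positive and those of the other 7 members negative with all libraries, and *Kmt2d* turns positive without E6.2 replicate 1.

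With all 15 libraries the log2 fold change in this contrast was positive for 3 members and negative for 7, and only 2 of the 10 were called. Sorted by sign alone, which changed for *Kmt2d* without E6.2 replicate 1, the members also differed in transcript length and in the libraries that stood apart. *Ezh2, Dnmt1* and *Uhrf1* have between 4259 and 6304 exonic bases, and the other 7 members between 9179 and 19839. In E6.2 replicate 1 the 910 tested genes of 9000 bases and over had a median log2 deviation of 0.27 from their own mean over the 15 libraries, beside -0.12 for genes under 2000 bases. In E6.2 replicate 3 the order was opposite, with -0.21 for the longest class and 0.14 for the shortest, and E7.2 replicate 3 was similar with -0.18 and 0.10. *Kmt2d*, the longest member, deviated by 1.48, *Crebbp* by 1.24, *Tet2* by 1.10, *Ep300* by 0.68 and *Arid1a* by 0.60 in E6.2 replicate 1, all more than the class median. With an offset for length, the E7 against E6 values were -0.33 for *Ep300* and -0.51 for *Tet2*, and the same pair was called with 12.9% of all genes. All 7 longer members had smaller differences than without it, with *Crebbp* at -0.53, *Dnmt3a* at -0.25 and *Kmt2d* at -0.11. Against parental cells, *Kmt2d* and *Arid1a* turned positive in both E7 clones, as did *Dnmt3a* for E7.2 (0.25). *Crebbp, Ep300, Tet2* and *Tet3* stayed negative in both, with *Ep300* for E7.2 at -0.04. What part the length trend has in the differences of single members was not tested.

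**Figure D4:**
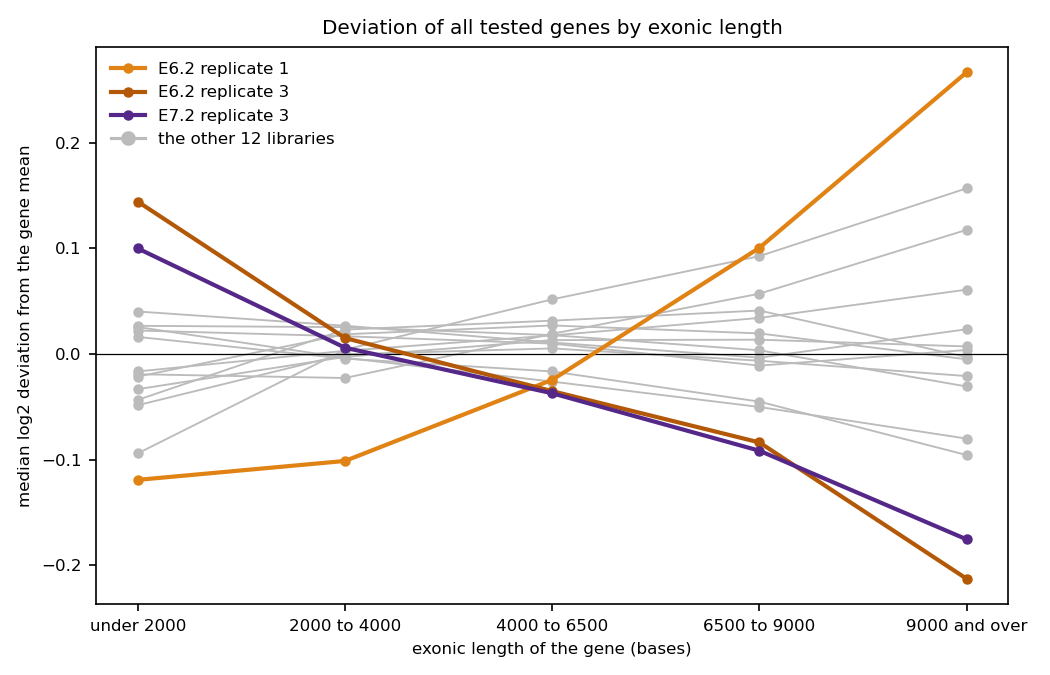
Median log2 deviation from the gene mean over the 13904 tested genes, by exonic length class, with 1 line for each library. E6.2 replicate 1 rises to 0.27 in genes of 9000 bases and over, and E6.2 replicate 3 and E7.2 replicate 3 fall to -0.21 and -0.18.

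Proliferation genes were high in 5 of 6 E7 libraries and low in E7.2 replicate 3, as *Ezh2, Dnmt1* and *Uhrf1* were. The 16 genes of that list, which include *Mki67*, a nuclear protein of cycling cells, and *Top2a*, the topoisomerase of dividing cells, summed to between 4243 and 5804 CPM in parental cells, 4733 and 5212 in E6.1, 3167 and 4282 in E6.2, and 6029 and 6845 in E7.1. E7.2 had 6113 and 6207 CPM in replicates 1 and 2 and 1592 CPM in replicate 3, where *Mki67* was at 247 CPM, against 1268 and 1398 in the other E7.2 libraries. In the E7 against E6 contrast all 16 had a positive log2 fold change (median 0.35), and 1 was called, the G1/S cyclin gene *Ccne1* (1.29, adjusted p = 0.0187, edgeR quasi-likelihood test). Without E7.2 replicate 3, 14 of 16 were called higher. In these bulk libraries fewer cells of a kind and less RNA per cell cannot be told apart, and the part that cell cycle state has in the values of the members was not tested.

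**Figure D5:**
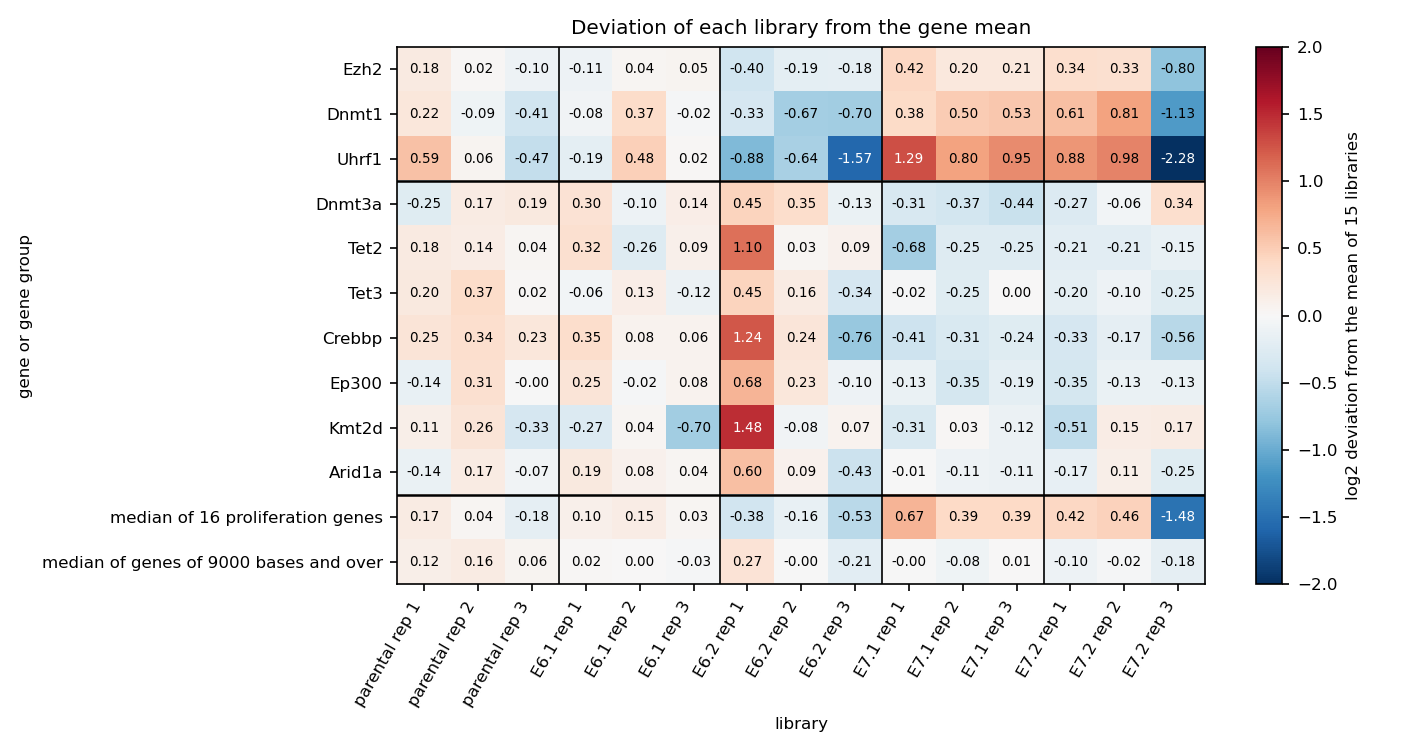
Log2 deviation of each library from the mean of the 15 libraries for the 10 members, with the median deviation of 16 proliferation genes and of the 910 genes of 9000 bases and over below them; red is higher and blue lower. In E7.2 replicate 3 *Uhrf1* deviates by -2.28, *Dnmt1* by -1.13 and the proliferation median by -1.48, and in E6.2 replicate 1 the largest deviation is 1.48 for *Kmt2d*.

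Clones of the same exon were also compared with each other. No member was called between E6.2 and E6.1 (1.24% of all genes called, 1 member with an unadjusted p under 0.05) or between E7.2 and E7.1 (0.590% of all genes called, 0 members with an unadjusted p under 0.05). The largest values were -1.11 for *Uhrf1* and 0.95 for *Kmt2d* between the E6 clones, and -0.60 for *Uhrf1* and 0.40 for *Dnmt3a* between the E7 clones. A difference between the 2 E6 clones in *Uhrf1* was therefore of similar size to that between the exon groups. The test over all 5 lines called 0 members (6.28% of all genes), with 2 at an unadjusted p under 0.05 (*Tet2* and *Uhrf1*), and DESeq2 called 1 (*Uhrf1*) and 22.5% of all genes.

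The partners of the members in their complexes and pathways were examined as 5 lists. Against parental cells 0 genes of these lists were called in any clone with all 15 libraries. In E7.1 the KMT2, BAF and acetylation lists had 2, 1 and 2 calls without E6.2 replicate 3 (7.05% of all genes called) and 1, 1 and 2 without E7.2 replicate 3 (4.25%), and the acetylation list had 1 without E6.2 replicate 1 (2.10%). In the E7 against E6 contrast 10 of 64 genes in the 5 lists were called (15.6%, beside 12.1% of all genes), and those described are named after their values were seen. Of 10 PRC2 partners 1 rose, *Rbbp7* (0.44, adjusted p = 0.0444), a histone-binding subunit. Of 12 genes of the KMT2 complexes and H3K27 demethylases, *Paxip1* rose (0.49, adjusted p = 0.0345) and the core subunit *Rbbp5* fell (-0.48, adjusted p = 0.0152). Of 15 BAF genes 1 fell, *Dpf2*, a PHD finger subunit, from 148 ± 20.6 CPM (SD, n = 6) in the E6 clones to 93.0 ± 16.7 in the E7 clones (-0.68, adjusted p = 0.0140). All adjusted p-values here are from the edgeR quasi-likelihood test.

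Of 12 acetyltransferases, deacetylases and their corepressors 2 rose, the deacetylase *Hdac2* (0.43, adjusted p = 0.0312) and *Bcl6*, the germinal centre repressor that recruits deacetylases (0.52, adjusted p = 0.0465). Among 15 genes of DNA methylation and demethylation, the de novo methyltransferase *Dnmt3b* rose (0.54, adjusted p = 0.0217). The *Uhrf1* paralog *Uhrf2* (-0.37, adjusted p = 0.0191) and the remaining Tet enzyme gene *Tet1* (-1.73, adjusted p = 0.0443) fell, by the edgeR quasi-likelihood test. *Tet1* was low in all clones, at 2.53 ± 2.35 CPM (SD, n = 6) in the E6 clones and 0.708 ± 0.273 in the E7 clones. Medians of the 5 lists lay between -0.16 and 0.15, beside -0.03 over all genes. Without E6.2 replicate 1 these counts were 0 for PRC2, 1 fall for KMT2, 1 fall for BAF, 2 rises for the acetylation list and 1 rise and 1 fall for DNA methylation. Without E6.2 replicate 3 they were 1 rise and 1 fall for PRC2, 3 and 4 for KMT2, 3 and 3 for BAF, 5 and 0 for acetylation and 2 and 4 for DNA methylation. Without E7.2 replicate 3 they were 2 rises and 0 falls for PRC2, 1 and 1 for KMT2, 1 and 1 for BAF, 3 and 1 for acetylation and 4 and 1 for DNA methylation.

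The promoters were searched for words of E2F factors, which bind at genes of DNA replication, and of forkhead factors, the family of Foxp1. RefSeq gave 16 windows on GRCm38.p6 for the 10 members, each with 250 bases before and 50 after a transcript start. They were searched on both strands for 3 E2F words (TTTCGCGC, TTTGGCGC and TTTCCCGC). They were also searched for TGTTTAC, the core forkhead word, for its variant with G, which is TGTTTGC, and for the related forkhead word TATTTAC. E2F words were in 4 of 16 member windows, belonging to 4 of 10 members, and in 1.84% of the 32851 windows of all genes. The 4 windows were 1 each of *Ezh2, Dnmt1, Uhrf1* and *Arid1a*. Each of the 3 E2F words contains a CpG dinucleotide, and member windows held a median of 30.5 CpG, beside 7 over all windows. The windows of all genes were not matched for CpG, so the shares cannot show that E2F words are particular to the members. *Ezh2, Dnmt1* and *Uhrf1* were high and low in the same libraries as the proliferation list, and *Arid1a*, which also has a word, was not. Whether the words have a part in these levels was not tested. The stretches that hold the words are given below 5′ to 3′ on the strand of the gene, with the word in capitals.
Ezh2: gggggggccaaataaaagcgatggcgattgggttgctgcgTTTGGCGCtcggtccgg
Dnmt1: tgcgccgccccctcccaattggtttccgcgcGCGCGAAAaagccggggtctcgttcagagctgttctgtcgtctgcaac
Uhrf1: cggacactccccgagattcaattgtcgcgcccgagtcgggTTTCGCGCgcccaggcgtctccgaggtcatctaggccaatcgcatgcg
Arid1a: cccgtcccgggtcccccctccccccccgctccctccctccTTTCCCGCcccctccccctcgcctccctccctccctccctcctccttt

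The *Ezh2* stretch is chr6:47595011-47595067 on the minus strand and its word starts at base 4 of the transcript. The *Dnmt1* stretch is chr9:20952795-20952873 on the minus strand, where the word is read on the opposite strand and starts 219 bases before the start of its RefSeq window 3, which also has TTTGGCGC from base 34 of the transcript. The *Uhrf1* stretch is chr17:56304088-56304175 on the plus strand, 185 bases before the start of its second window. The *Arid1a* stretch is chr4:133753993-133754080 on the minus strand, 55 bases before the start of its second window. Forkhead words were in the windows of 1 member, *Dnmt1*, 162 bases before the start of its first window, and in 11.2% of all windows. A word is a match of letters only, and no binding was measured in these data.

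CpG dinucleotides, the substrate of the Dnmt and Tet enzymes, were frequent in most of the members' own promoters, with a median of 30.5 in each 300-base window, beside 7 over all windows. The first *Dnmt1* window held only 2. The windows of all genes were not limited to genes that passed the filter on low counts. The medians therefore cannot show that CpG content is particular to the members. The *Tet2* window was the extreme with 57, more than in 99.8% of all windows. Its 100 bases just upstream of the start, chr3:133544391-133544490 on the minus strand, hold 20 CpG, shown here in capitals.
Tet2: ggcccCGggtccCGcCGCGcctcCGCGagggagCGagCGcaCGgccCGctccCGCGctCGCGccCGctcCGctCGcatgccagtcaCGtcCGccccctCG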

How the data were processed

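RNA had been extracted from 15 cultures (RNeasy) and sequenced on an Illumina platform. Per the file headers and the labels, the authors aligned read pairs to mm10 with HISAT, used SAMtools and counted pairs by gene, without strand, with featureCounts 1.5.0 (GRCm38 gene models plus ERCC spike-ins). The deposited values are raw counts per gene. The 92 spike-ins, at 0 in all libraries, were left out, and 40254 of 41388 genes had a symbol. Total counts had a median of 35586010, and 3 counts, the smallest level considered, equalled 0.0751 to 0.118 CPM. A floor of this kind covers counting error only. The intervals of the fold changes come from the standard errors of the edgeR fit, which also include the spread between passages.

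The members and gene lists were chosen with earlier results of these data known. Groups follow the sample labels, and replicates are passages, so p-values measure the spread between passages. Counts were filtered with filterByExpr (13904 genes), normalized by TMM and fitted in R 4.3.3 with edgeR 4.0.16 (glmQLFit with legacy = TRUE, glmQLFTest) on all 15 libraries, with line as the only factor. Adjusted p is by Benjamini-Hochberg over all tested genes within a comparison, and a gene was called under 0.05 with no fold threshold. Named genes are the 10 members, *Foxp1*, listed partners called in a clone (none were) and genes alike to members called in a clone or over the lines (none were called). Partners called between exon groups, and the comparisons of clones with the same exon, were added later. Some results that these rules would include are left out of the text. The libraries were checked for copies, and none was found. The method was tested on simulated counts with less spread between libraries than these data and no library that stood apart. That test does not show how the method performs for differences as small as those of the members. Alternatives were DESeq2 size factors, DESeq2 1.42.0, no filter, legacy = FALSE, fits of the compared libraries alone, a replicate block, and removal of libraries. An offset for gene length (loess, span 0.5) was added after seeing the data. Figures used matplotlib 3.10.9.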

Additional observations from a re-analysis of the deposited data

Results flagged for a closer look

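Of the 20 groups of 6 libraries (10 members in the E6 and in the E7 clones), 6 had 1 library far from the others by Dixon's test, where chance gives about 1 in 20 for independent groups. Most came from E7.2 replicate 3 and E6.2 replicate 1, so the groups are not independent. The share of all genes with such a library was not counted, so the number cannot be called particular to the members. In E7.2 replicate 3, *Ezh2* was at 177 CPM, *Dnmt1* at 95.7 CPM and *Uhrf1* at 19.4 CPM, all far under the other E7 libraries. In E6.2 replicate 1, *Kmt2d* was at 158 CPM and *Tet2* at 49.96 CPM, far over the other E6 libraries. *Tet2* in E7.1 replicate 1 was at 14.5 CPM, far under the other E7 libraries. The E7 and E6 clones differed by the edgeR quasi-likelihood test in *Ep300* (log2 fold change of -0.42, adjusted p = 0.0482) and *Tet2* (-0.57, adjusted p = 0.0484). Over all alternatives the adjusted p ranged from 0.00683 to 0.134 for *Ep300* and from 0.0187 to 0.135 for *Tet2*.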

How the results depend on the processing

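The members had at least 541 counts in each library, and precision is limited by having 3 libraries for each line and by the 3 libraries that stood apart. The counts of members called in E6.1 and in E6.2 against parental cells stayed at 0 in every alternative, and those in E7.1 and E7.2 in every removal of 1 library. In E7.1 a fit of the compared libraries alone called 1 member and the removal of E6.2 and E7.2 replicates 3 together called 2. The latter called 1 in E7.2 (1.53% of all genes), 7 in the E7 against E6 contrast (33.1%) and 6 over the 5 lines (4079 of 14284 genes). In that contrast, which called 2 members as reported, DESeq2 called 4, and DESeq2 size factors in edgeR and a fit of the 12 clone libraries alone each called 0. Over the 5 lines, which called 0 as reported, no filter and DESeq2 each called 1, beside 1617 of 24777 and 3125 of 13904 genes. With 1 library left out, the contrast called from 0 (11 of 15 fits) to 5 members and the 5 lines from 0 to 3. The 5 came without E6.2 replicate 3, with 26.8% of all genes called. The 3 came without E7.2 replicate 3, with 1678 of 14339 genes called. The replicate numbers did not pair the libraries (mean correlation of deviations of 0.0531 over 30 pairs with the same number and -0.0249 over 60 with different numbers). The replicate block called 0 members in the E7 against E6 contrast, as did the block with the length offset, added after seeing the data. Without E6.2 replicate 1, 3 values changed sign: *Kmt2d* in E7 against E6 clones to 0.088 (range with 1 library left out from -0.41), *Kmt2d* in E6.2 to -0.0498 (range up to 0.90) and *Arid1a* in E6.2 to -0.15 (range up to 0.40). Of 480 alternative values of 20 single fold changes, 425 kept direction and side of the threshold, 35 lost a call, 17 gained one and 3 changed sign. The causes were not tested. With only the 250 bases before the start searched, E2F words were in 3 members and forkhead words in 1.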
